A study of Homo sapiens with 6 samples.

Results

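CRABP2, STRA6 and RARG, 3 genes that handle vitamin A and its hormone retinoic acid, were followed in IMR32 cells treated with sAKZ692, a small molecule that the study describes as an activator of the transcription factor NRF2. They were picked by gene symbol from a table of 11351 genes, with their difference between treated and control cells already known, so that difference is given here as a description and carries no test. IMR32 is an established cell line from a human neuroblastoma in which MYCN is amplified. The treated group was 3 libraries from cells given 20 µM sAKZ692 for 24 h, and the control group was 3 libraries from cells given the solvent DMSO for the same time. All cells grew in DMEM with 10% fetal bovine serum, plated in 6-well dishes, and nothing in the labels says that replicates came from separate cultures. Each p-value therefore measures only how these samples spread, which may be technical.

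Vitamin A reaches cells as retinol bound to a plasma carrier, and STRA6 is the membrane receptor that takes it up. Inside the cell, retinol is oxidised to retinal by retinol dehydrogenases and retinal to retinoic acid by aldehyde dehydrogenases of the ALDH1A family. CRABP2 carries retinoic acid to the nucleus, where retinoic acid receptors such as RARG bind DNA together with retinoid X receptors and turn target genes on. Retinoic acid makes many neuroblastoma cell lines differentiate, and CRABP2, STRA6 and the receptor gene RARB are themselves known to be induced by it in various cells.

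The promoters of the 3 genes are shown because they share a pathway and were all higher in at least 2 treated libraries, and that of RARB, at the first of its 4 annotated starts, because it holds the textbook retinoic acid response element. Sequences are from RefSeq on GRCh38.p14, 300 bases each, from 250 bases before to 50 bases after an annotated start, and all 4 genes matched a row by symbol. Capitals mark, on either strand, hexamers of the kind that retinoid receptors bind and the core of the antioxidant response element that NRF2 binds. The hexamers searched were AGGTCA (in 13.8% of all promoter windows), GGGTCA (in 14.1%), AGTTCA (in 10.4%) and GGTTCA (in 8.62%), and the antioxidant core was TGACNNNGC. The E-box CACGTG, which MYC family factors bind, was searched on both strands as well. The reverse complements of AGGTCA and GGGTCA begin with TGAC and could overlap the antioxidant core, but did not here.
CRABP2 promoter, chr1:156705735-156706034, minus strand: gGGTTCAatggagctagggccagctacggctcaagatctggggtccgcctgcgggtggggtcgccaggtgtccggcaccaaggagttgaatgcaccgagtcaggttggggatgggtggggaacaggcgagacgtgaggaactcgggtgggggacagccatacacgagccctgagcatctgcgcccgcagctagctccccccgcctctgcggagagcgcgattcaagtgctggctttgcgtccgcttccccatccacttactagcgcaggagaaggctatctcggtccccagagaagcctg
STRA6 promoter, chr15:74212210-74212509, minus strand: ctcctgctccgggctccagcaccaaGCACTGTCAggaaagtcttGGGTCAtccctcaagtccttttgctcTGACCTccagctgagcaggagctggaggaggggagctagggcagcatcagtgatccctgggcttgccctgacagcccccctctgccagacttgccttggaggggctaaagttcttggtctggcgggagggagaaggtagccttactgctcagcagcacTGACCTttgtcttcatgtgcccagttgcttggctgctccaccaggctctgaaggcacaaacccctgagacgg
RARG promoter, chr12:53232160-53232459, minus strand: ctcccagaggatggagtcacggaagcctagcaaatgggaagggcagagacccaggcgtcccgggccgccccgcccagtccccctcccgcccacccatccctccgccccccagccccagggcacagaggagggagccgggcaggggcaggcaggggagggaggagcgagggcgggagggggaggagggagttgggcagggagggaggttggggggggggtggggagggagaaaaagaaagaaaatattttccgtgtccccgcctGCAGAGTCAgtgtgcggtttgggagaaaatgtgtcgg
RARB promoter, chr3:25428013-25428312, plus strand: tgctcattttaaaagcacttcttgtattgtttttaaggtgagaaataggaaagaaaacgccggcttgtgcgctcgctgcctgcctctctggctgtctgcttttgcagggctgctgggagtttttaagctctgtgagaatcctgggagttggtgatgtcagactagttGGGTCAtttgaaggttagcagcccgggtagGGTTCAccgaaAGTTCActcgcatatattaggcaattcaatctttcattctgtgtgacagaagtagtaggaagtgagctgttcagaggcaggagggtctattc

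The CRABP2 window held 1 receptor hexamer and no antioxidant core. The STRA6 window shown, the most upstream of 5 annotated starts, held 3 receptor hexamers and 1 antioxidant core. Of the other 4 STRA6 windows, 1 held a receptor hexamer and another an antioxidant core. The RARG window held 1 antioxidant core, just after the start, and no hexamer. Only the RARB window of these 4 held 2 hexamers as a direct repeat with 5 bases between them, the arrangement named DR5. Of 35116 promoter windows in the RefSeq table, 38.6% held at least 1 receptor hexamer, 2.09% at least 3, 13.3% the antioxidant core, 7.26% the E-box and 0.0883% a DR5. None of the 4 windows held the E-box. A match is a description of these letters and not a site of binding.

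Replicate 3 of sAKZ692 stood apart from the rest of its group across the table. TPM is a relative transcript abundance that allows for transcript length and so lets levels of different genes be compared. Across the 9137 genes that averaged 1 TPM or more over the libraries, called tested genes here, on log2(TPM + 1), Pearson's r was 0.971 and 0.972 between it and the other treated libraries, 0.992 between those, and 0.994 to 0.995 among the DMSO libraries. Against the DMSO libraries, r was 0.959 to 0.96 for replicate 3 of sAKZ692, and 0.972 to 0.976 for replicates 1 and 2 of sAKZ692. These are correlations across genes, which do not stand for replicates. The median absolute gap between replicate 3 and the mean of replicates 1 and 2 was 0.22 on the log2 scale, and between replicates 1 and 2 it was 0.11. Results are therefore given with and without that library where it alters them.

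CRABP2 and STRA6 were several times higher in replicates 1 and 2 of sAKZ692, while RARG was modestly higher in all 3 treated libraries. In replicate 3 of sAKZ692, CRABP2 lay within the control range. STRA6 was 1.56 times its DMSO mean in that library, and RARG 1.33 times. All 3 passed that filter on low values, and the lowest group mean among them was 2.51 TPM, for STRA6 with DMSO.

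CRABP2, the retinoic acid carrier, had 175, 146 and 19.6 TPM in replicates 1, 2 and 3 of sAKZ692, against 22.2, 23.7 and 18.2 TPM in replicates 1, 2 and 3 of DMSO. Replicates 1 and 2 of sAKZ692 were thus far above every control library, whereas replicate 3 lay within the control range. The mean was 114 ± 82.7 TPM with sAKZ692 and 21.3 ± 2.86 TPM with DMSO (SD, n = 3 each), a ratio of 5.32. The mean of replicates 1 and 2 of sAKZ692 was 7.52 times the DMSO mean, and replicate 3 was 0.920 times it. On log2(TPM + 1), the scale of all log2 values given here, which understates changes of genes near or below 1 TPM, the difference was 1.87 with all libraries and 2.86 without replicate 3 of sAKZ692.

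STRA6, the retinol receptor, had 13.2, 19.2 and 3.92 TPM in replicates 1, 2 and 3 of sAKZ692, against 1.71, 2.77 and 3.05 TPM in replicates 1, 2 and 3 of DMSO. Here too replicates 1 and 2 stood far above the controls, and replicate 3 was only a little above the highest of them. The groups did not overlap. Mean levels were 12.1 ± 7.69 TPM with sAKZ692 and 2.51 ± 0.708 TPM with DMSO (SD, n = 3 each), a ratio of 4.82 and a log2 difference of 1.70. Without replicate 3 of sAKZ692 the log2 difference was 2.29, and replicates 1 and 2 averaged 6.45 times the DMSO mean, against 1.56 times for replicate 3. In the GENCODE annotation, 7.02% of the exonic bases of STRA6 overlap exons of CCDC33 on the other strand, and the use of strand in the quantification is not given in the sources used here.

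RARG, one of the nuclear receptors for retinoic acid, had 16.8, 15.6 and 14.5 TPM in replicates 1, 2 and 3 of sAKZ692, against 12.0, 10.9 and 9.89 TPM in replicates 1, 2 and 3 of DMSO. Every treated library was above every control library, and replicate 3 was near the others of its group. Its mean was 15.6 ± 1.14 TPM with sAKZ692 and 10.9 ± 1.07 TPM with DMSO (SD, n = 3 each), a ratio of 1.43 and a log2 difference of 0.48. The median log2 difference over all tested genes was 0.14, which leaves RARG 0.34 above the median gene. After median-ratio scaling, in which libraries are brought to a common median ratio against a geometric-mean library and which moved the median over all genes to -0.03, the log2 difference of RARG was 0.31 and the groups still did not overlap.

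**Figure D1:**
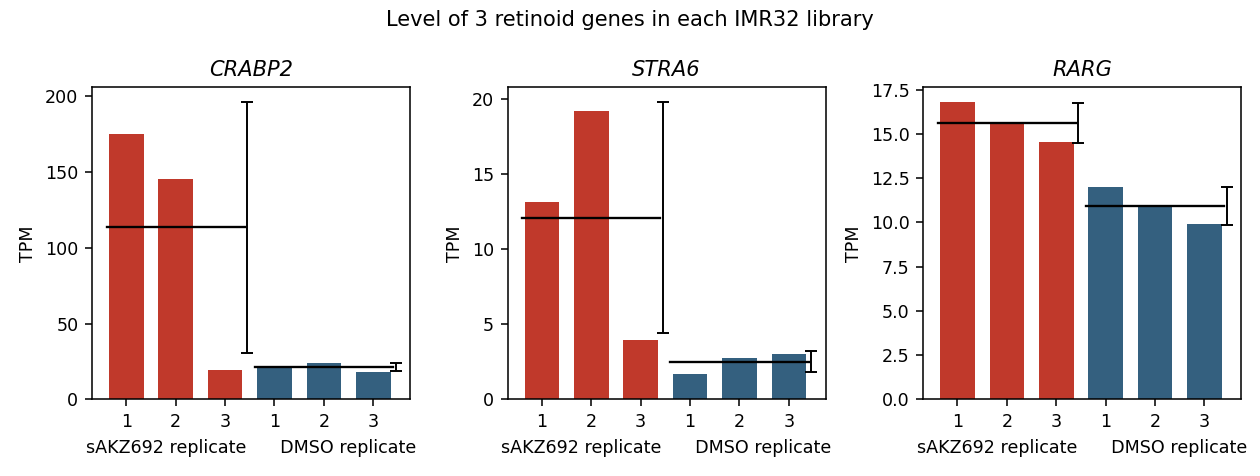
Bars give the TPM of CRABP2, STRA6 and RARG in each library (3 sAKZ692 libraries at left, 3 DMSO libraries at right), horizontal lines the group mean and error bars the SD over 3 libraries. In replicate 3 of sAKZ692, CRABP2 at 19.6 TPM lies within the control range and STRA6 at 3.92 TPM a little above it, while RARG at 14.5 TPM lies with its own group.

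Of the 3 genes, 2 were higher in every treated library than in any control library, where 35.9% of tested genes were. None was lower in every treated library, where 14.6% of tested genes were. The choice of the genes used this contrast, so nothing is read from these counts. CRABP2 was the most abundant of them in every library. RARG was above STRA6 in 5 of the 6 libraries, the exception being replicate 2 of sAKZ692. In the treated group RARG and STRA6 did not differ beyond their spread, since the range of STRA6, 3.92 to 19.2 TPM, encloses that of RARG, 14.5 to 16.8 TPM. In DMSO the order was CRABP2, RARG and STRA6, with no overlap between their ranges.

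The gap between replicate 3 and the mean of replicates 1 and 2 of sAKZ692 differed widely between the 3 genes. For CRABP2 it was -2.96, the 3rd lowest of all tested genes, and for STRA6 it was -1.78, the 24th lowest, while RARG had -0.15. By the rise in replicates 1 and 2 alone, CRABP2 ranked 3rd, STRA6 11th and RARG 1673rd of 9137. The rise over all 3 treated libraries ranked 39th for CRABP2, 56th for STRA6 and 1893rd for RARG.

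**Figure D2:**
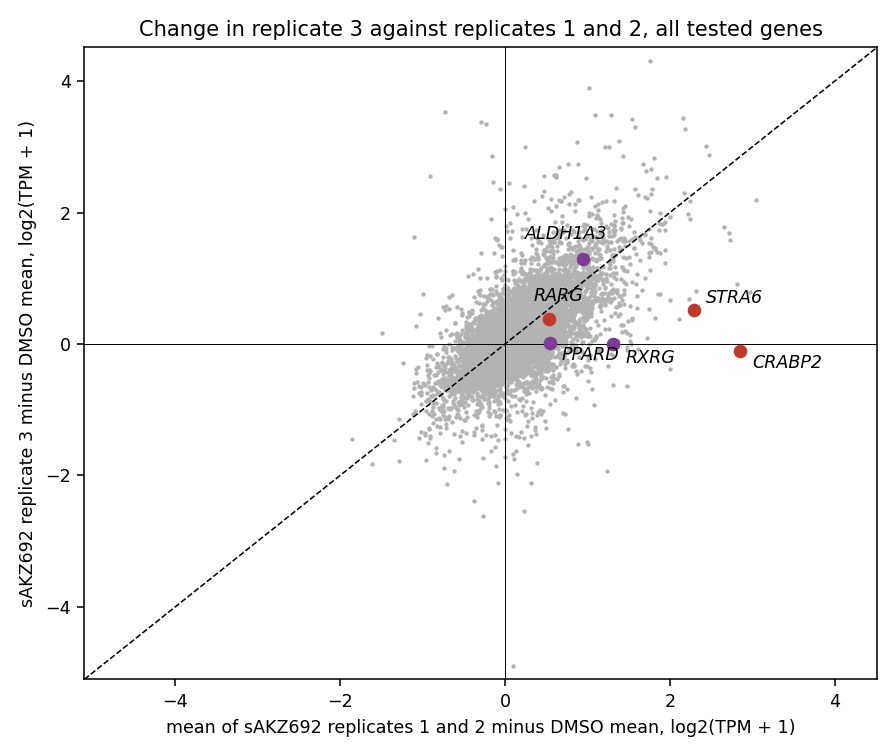
Each grey point is 1 of 9137 tested genes, with the change from the DMSO mean in the mean of sAKZ692 replicates 1 and 2 on the x axis and in sAKZ692 replicate 3 on the y axis, both as differences of log2(TPM + 1); the dashed line marks equal change, and both axes share the DMSO mean, red marks CRABP2, STRA6 and RARG, and purple marks 3 other retinoid genes. CRABP2 (2.86 on x, -0.11 on y) and STRA6 (2.29 and 0.51) lie far below the line, and RARG (0.53 and 0.38) lies near it.

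Of 4319 tested genes above all controls in replicates 1 and 2 of sAKZ692, 1035 (24.0%) were not above all controls in replicate 3. Among the 413 of them whose mean rise in replicates 1 and 2 was at least 1 on the log2 scale, 39 (9.44%) did this, CRABP2 included. STRA6 is not among the 39, because its replicate 3 exceeded the highest control.

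The rest of the retinoid pathway was described with a list of 55 other genes, grouped by role, of which 24 were in the table and 17 passed the filter. Groups were compared with limma on log2(TPM + 1) over all 9137 tested genes, with Benjamini-Hochberg adjustment and a threshold of 0.05. Of the 17 genes, 2 were higher (11.8%), where 24.1% of all tested genes were higher, and 0 were lower, where 8.5% of all tested genes were. At an unadjusted p under 0.05, 5 of the 17 were higher and 0 lower, against 2987 higher and 1118 lower of all 9137 tested genes. The median log2 fold change of the 17 was 0.18, against 0.14 over all tested genes, and after median-ratio scaling it was -0.0003, against -0.03. Without replicate 3 of sAKZ692, 6 of the 17 (35.3%) were higher and 0 lower, close to the 34.6% of all tested genes that were higher, with 14.5% lower.

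ALDH1A3, which makes retinoic acid from retinal, was the clearest of these. It had 3.21, 3.17 and 4.35 TPM in replicates 1, 2 and 3 of sAKZ692, against 1.08, 1.55 and 0.931 TPM in replicates 1, 2 and 3 of DMSO. All treated libraries were above all controls, and replicate 3 was the highest, unlike for CRABP2 and STRA6. Its log2 fold change was 1.06 with a standard error of 0.18 (limma adjusted p = 0.00475), and over the alternatives that kept it the adjusted p lay between 0.0019 and 0.0305. In the GENCODE annotation 28.6% of its exonic bases overlap 2 other annotated genes, so part of its level cannot be told apart from theirs. ALDH1A1 and ALDH1A2 were not analysed here.

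DGAT1, an acyltransferase that makes triglycerides and can also esterify retinol for storage, had 76.3, 76.0 and 57.6 TPM in the sAKZ692 libraries, against 51.4, 44.9 and 53.5 TPM in the DMSO libraries. It rose by 0.47 on the log2 scale (limma adjusted p = 0.0264), with replicate 3 the lowest treated library. The call was lost after median-ratio scaling (adjusted p = 0.127), after quantile normalization (adjusted p = 0.0638) and without any 1 library other than replicate 3 of sAKZ692 (adjusted p between 0.0596 and 0.0993). LIPE, the hormone-sensitive lipase, which can hydrolyse retinyl esters, averaged 23.6 ± 3.47 TPM with sAKZ692 and 24.4 ± 1.14 TPM with DMSO (SD, n = 3 each) and did not pass (adjusted p = 0.756).

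Uptake and binding genes other than STRA6 and CRABP2 gave little to compare. SCARB1, a lipoprotein receptor that also takes up carotenoids, averaged 125 ± 3.69 TPM with sAKZ692 and 118 ± 4.72 TPM with DMSO (SD, n = 3 each) and did not pass in limma (adjusted p = 0.350). CD36, a fatty acid and carotenoid transporter, and RBP7, a cellular retinol-binding protein, were below 1 TPM in all 6 libraries and were not tested. CRABP1 and FABP5, the other intracellular carriers of retinoic acid, were not analysed here.

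Of the 4 tested genes that interconvert retinol and retinal, 0 passed in limma, where 24.1% of all tested genes were higher and 8.5% lower. None of the 4 had an unadjusted p under 0.05, where 4105 of all 9137 tested genes did. RDH11, a retinal reductase, averaged 84.3 ± 9.28 TPM with sAKZ692 and 75.5 ± 3.67 TPM with DMSO (SD, n = 3 each; adjusted p = 0.250). Without replicate 3 of sAKZ692 it was higher by 0.24 on the log2 scale (adjusted p = 0.0101). RDH14 averaged 32.2 ± 3.03 TPM with sAKZ692 and 33.4 ± 2.15 TPM with DMSO (adjusted p = 0.698 in limma). RDH5, named after its values were seen, had 3.07, 3.30 and 8.74 TPM in the sAKZ692 libraries, against 3.28, 3.75 and 3.61 TPM in the DMSO libraries. For RDH5 replicate 3 of sAKZ692 was thus the high library, opposite to CRABP2 and STRA6. The CYP26 enzymes, which clear retinoic acid, were not analysed here.

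Of the 3 nuclear receptors other than RARG that passed the filter, 0 passed in limma, where 24.1% of all tested genes were higher and 8.5% lower. At an unadjusted p under 0.05, 2 of the 3 were higher, where 2987 of all 9137 tested genes were. RXRG, a retinoid X receptor named here after its values were seen, had 19.8, 20.5 and 7.51 TPM in replicates 1, 2 and 3 of sAKZ692, against 7.60, 8.87 and 6.21 TPM in replicates 1, 2 and 3 of DMSO. Replicates 1 and 2 were far above every control and replicate 3 was inside the control range, the same layout as for CRABP2. Its log2 fold change was 0.88 and did not pass (limma adjusted p = 0.0858), and it was 1.31 without replicate 3 of sAKZ692 (adjusted p = 0.000102). PPARD, a receptor that can also be reached by retinoic acid through FABP5, had 17.6, 17.1 and 11.7 TPM in the sAKZ692 libraries, against 12.4, 11.0 and 11.3 TPM in the DMSO libraries. It did not pass with all libraries (log2 fold change 0.37, adjusted p = 0.106), and did without replicate 3 of sAKZ692 (0.54, adjusted p = 0.00158).

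RXRB, the more abundant retinoid X receptor of the 2 in the table, averaged 38.4 ± 4.42 TPM with sAKZ692 and 33.6 ± 3.32 TPM with DMSO (SD, n = 3 each; limma adjusted p = 0.234). RARB, a receptor and a direct retinoic acid target, had 0.885, 0.901 and 0.506 TPM in the sAKZ692 libraries, against 0.457, 0.566 and 0.562 TPM in the DMSO libraries, and was below the filter. It too was above the controls in replicates 1 and 2 and inside their range in replicate 3. RARG was therefore 17.3 to 28.7 times as abundant as RARB in the sAKZ692 libraries and 17.6 to 26.3 times in the DMSO libraries. RARA and RXRA were not analysed here.

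**Figure D3:**
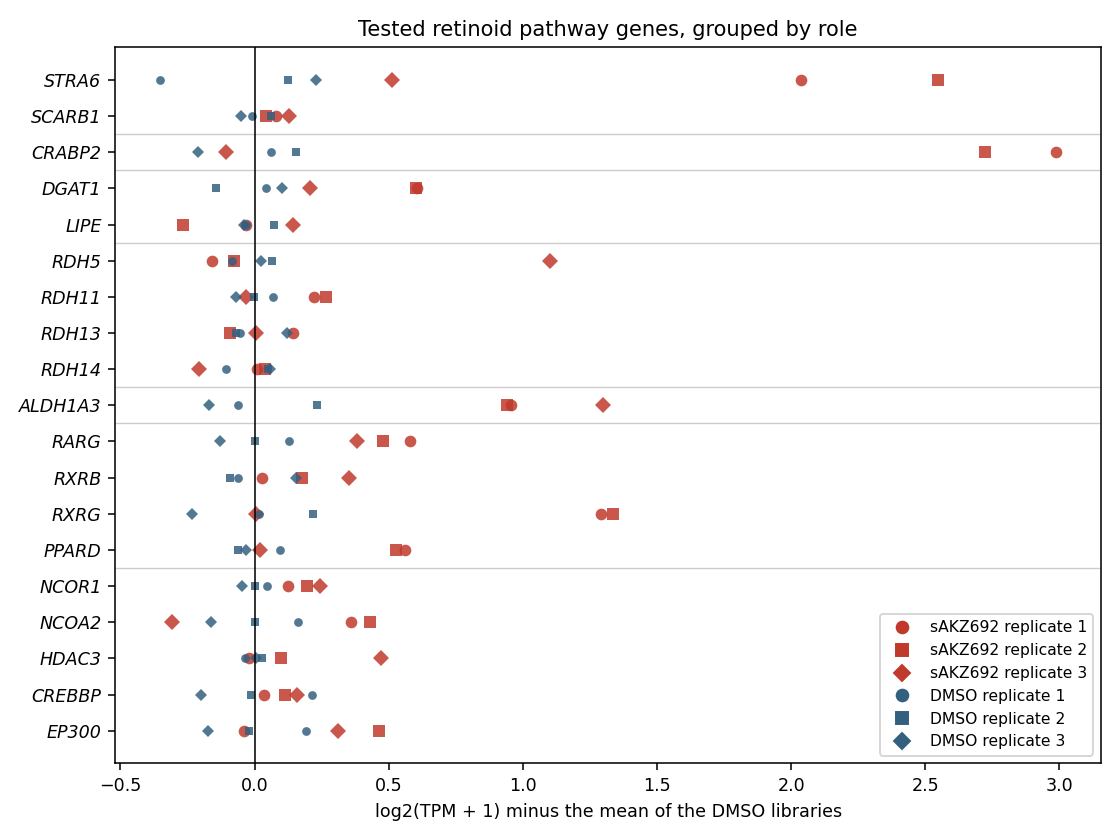
Each row is a tested retinoid gene reported here, ordered by role from uptake (top) to receptor coregulators (bottom), and each point a library, placed by its log2(TPM + 1) minus the DMSO mean (red sAKZ692, blue DMSO; circle, square and diamond for replicates 1, 2 and 3). CRABP2 and RXRG have 2 red points far to the right and the red diamond among the controls. STRA6 has 2 red points far to the right and its red diamond at 0.51. ALDH1A3 and RARG have all 3 red points to the right, with the RARG diamond at 0.38.

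Over the list, 7 of the 17 other retinoid genes (41.2%) were above all controls in replicates 1 and 2 of sAKZ692, where 47.3% of all tested genes were. Of these 7, 4 (57.1%) were not above all controls in replicate 3, against 24.0% of such genes in the whole table. The 4 were RXRG, PPARD, RDH11 and NCOA2, a receptor coactivator. In replicate 3, RXRG, PPARD and RDH11 lay inside the control range, and NCOA2 lay below it, at 7.80 TPM against 8.71 to 11.2 TPM with DMSO. This split was counted after the values had been seen and was not tested.

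Of the 6 coregulators in the table, which switch the receptors between repression and activation, 0 passed in limma, with 1 higher at an unadjusted p under 0.05, where 2987 of all 9137 tested genes were higher at that level. Without replicate 3 of sAKZ692, 1 of the 6 was higher, where 34.6% of all tested genes were, namely NCOA2 (log2 fold change 0.39, adjusted p = 0.0214), named after its values were seen. HDAC3, a histone deacetylase of the corepressor complexes, averaged 89.8 ± 16.8 TPM with sAKZ692 and 78.1 ± 1.72 TPM with DMSO (SD, n = 3 each), with an adjusted p of 0.288. Its high value came from replicate 3 of sAKZ692, at 109 TPM, while replicates 1 and 2 had 76.9 and 83.6 TPM.

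Genes that retinoic acid is known to induce were counted from a list of 33 symbols, of which 12 were in the table and 5 were tested. In limma 0 of the 5 were higher and 0 lower, where 24.1% of all tested genes were higher and 8.5% lower. None of the 5 had an unadjusted p under 0.05, where 4105 of all 9137 tested genes did. MEIS1, a homeobox gene, was the most abundant, at 412 ± 26.8 TPM with sAKZ692 and 423 ± 32.4 TPM with DMSO (SD, n = 3 each), with a log2 fold change of -0.04. The median log2 fold change of the 5 was -0.04, against 0.14 over all tested genes. Without replicate 3 of sAKZ692, 2 of the 5 (40.0%) were higher, where 34.6% of all tested genes were, namely MEIS2 (log2 fold change 0.54, adjusted p = 0.0250) and LAMB1, a laminin chain (0.18, adjusted p = 0.0359). The HOX targets, CYP26A1 and DHRS3 were not analysed here.

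The label of the cells was checked against markers. Of 11 markers of noradrenergic neuroblastoma, 7 were in the table. No gene of the table was at 0 in any library, so a value above 0 says nothing about a marker. The summed level of the 7 was 3101 to 3284 TPM in the sAKZ692 libraries and 2795 to 2961 TPM in the DMSO libraries. MYCN averaged 1432 ± 92.4 TPM with sAKZ692 and 1389 ± 41.9 TPM with DMSO (SD, n = 3 each), and HAND2 averaged 496 ± 93.5 TPM with sAKZ692 and 464 ± 11.0 TPM with DMSO. In limma 1 of the 7 (14.3%), CHGB, was higher and 0 were lower, where 24.1% of all tested genes were higher and 8.5% lower. Of 12 mesenchymal and stromal markers, 5 were in the table. Their summed level was 902, 847 and 1694 TPM in replicates 1, 2 and 3 of sAKZ692, against 996 to 1038 TPM with DMSO. VIM, the intermediate filament vimentin, made up most of that, with 566, 520 and 1334 TPM in the sAKZ692 libraries, against 669, 687 and 647 TPM in the DMSO libraries. THY1 was the 1 of the 4 tested markers (25.0%) that was higher in limma (log2 fold change 0.28, adjusted p = 0.0237), close to the 24.1% of all tested genes. Its call was lost after median-ratio scaling (adjusted p = 0.343) and without any 1 DMSO library (0.0547 to 0.1). Without replicate 3 of sAKZ692, 1 of the 4 (25.0%) was higher and 2 (50.0%) were lower, where 34.6% of all tested genes were higher and 14.5% lower. The 2 were VIM and TWIST1 (limma adjusted p = 0.00142 and 0.0361). TWIST1 was at 239 ± 19.2 TPM with sAKZ692 and 253 ± 4.51 TPM with DMSO, while the collagen genes were not analysed here. The library in which CRABP2 and RXRG lay within the control range, and STRA6 a little above it, was thus the one with the highest VIM. THY1 was highest there too, at 86.7 TPM, against at most 79.9 TPM in any other library. TWIST1, at 260 TPM there, was level with the highest control, at 259 TPM. After median-ratio scaling TWIST1 was lower with sAKZ692 (log2 fold change -0.27, limma adjusted p = 0.0356). FN1 was instead lowest there, at 13.4 TPM against 22.8 to 29.5 TPM with DMSO. WWTR1 was below 1 TPM throughout and inside the control range there. FN1 and WWTR1 were named after their values were seen. The part of VIM in the levels of CRABP2, STRA6 and RXRG was not tested. In bulk samples, fewer cells of a type and less RNA per cell cannot be told apart.

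To see what else followed the 3 genes, each was set against all other tested genes by the root mean square difference between centred log2(TPM + 1) profiles over the 6 libraries, where 0 is an identical profile. The closest genes to CRABP2 were CHAC1, a glutathione-degrading enzyme (0.34), INHBE, an activin subunit (0.39), and ETV4, an ETS transcription factor (0.43), where the median gene was at 1.33. CHAC1 had 45.7, 50.6 and 9.88 TPM in the sAKZ692 libraries, against 5.83, 5.88 and 4.30 TPM in the DMSO libraries. INHBE had 11.0, 9.73 and 2.02 TPM in the sAKZ692 libraries, against 0.531, 0.799 and 0.518 TPM in the DMSO libraries. All 3 shared the high replicates 1 and 2, and only ETV4 was, like CRABP2, not above the controls in replicate 3, at 8.21 TPM against 9.37 to 13.7 TPM.

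The closest genes to STRA6 were CABP1, a neuronal calcium-binding protein (0.26), SPRY4, an inhibitor of ERK signalling (0.28), and ACHE, acetylcholinesterase (0.29), where the median gene was at 1.02. SPRY4 had 9.42, 11.6 and 2.93 TPM in the sAKZ692 libraries, against 1.54, 1.77 and 1.06 TPM in the DMSO libraries. CRABP2 and STRA6 differed from each other by 0.52, and RXRG ranked 29th by closeness to CRABP2 (0.75) and 49th to STRA6 (0.52). RARG had another shape, at 1.17 from CRABP2 and 0.87 from STRA6. Its closest genes were C6orf89 (0.02), AGO1, an argonaute protein of the RNA silencing machinery (0.03), and CYB561, a cytochrome of secretory granules (0.04), where the median gene was at 0.27. With 6 libraries in 2 groups, many genes come close to any given profile, and no shared control is implied.

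**Figure D4:**
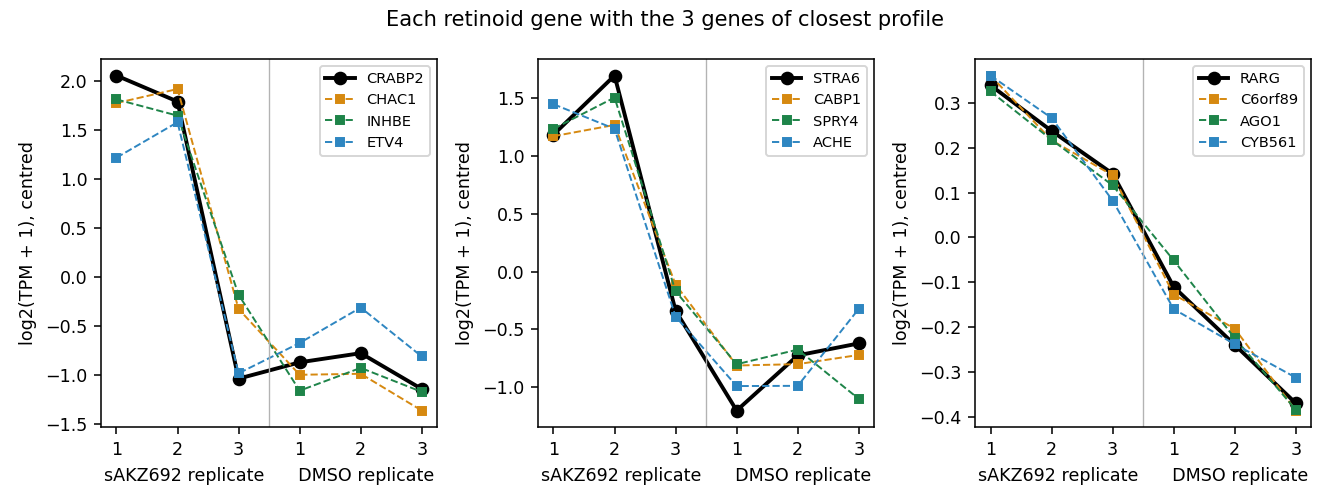
Lines give log2(TPM + 1), centred on its mean over the 6 libraries, for CRABP2, STRA6 and RARG (black) and the 3 tested genes closest to each (dashed), with the sAKZ692 libraries at left and the DMSO libraries at right. The CRABP2 and STRA6 groups drop steeply at replicate 3 of sAKZ692, while the genes of the RARG group stay above all 3 controls there, on a much narrower axis.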

How the data were processed

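RNA from IMR32 cells was sequenced in 6 libraries, 3 with sAKZ692 and 3 with DMSO. Per the labels' protocols, single-end reads of 50 bases were made on a BGISEQ-500; the submitters' processing notes name kallisto. Its version, annotation, genome build and strand setting were not given in any source used here. What the authors deposited is 1 table of TPM by gene symbol. Its columns hold 61.2% to 61.9% of the full TPM total, except 65.9% for replicate 3 of sAKZ692. TPM keeps no read number, so depth is unknown and no counting interval is given.

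Genes averaging 1 TPM or more over all libraries were tested on log2(TPM + 1) with limma 3.58.1 in R 4.3.3 (mean-variance trend, Benjamini-Hochberg adjustment over all tested genes, threshold 0.05), a step also tested on simulated data. The members and gene lists were chosen with earlier results of these data known. Named genes are the 3 members, list genes past the threshold, the 2 most abundant of each retinoid role, the 3 closest profiles per member and the 3 most abundant of each marker list; others are marked where named, and some genes that the rule takes are not reported here. The target list holds PLAAT4 under 2 symbols. Alternatives were 2 pseudocounts, 2 filters, 2 scalings, 2 limma settings, the replicate number as a block, and fits that omit 1 library each.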

Additional observations from a re-analysis of the deposited data

How the results depend on the processing

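Across pseudocounts of 0.1 and 0.5, both scalings and leaving out each library, the log2 differences of CRABP2, STRA6 and RARG kept their sign. Without single libraries that of CRABP2 lay between 1.31 and 2.86, that of STRA6 between 1.27 and 2.29 and that of RARG between 0.42 and 0.54, while scaling by median ratios put RARG at 0.31 and quantile normalization at 0.25. Genes higher numbered 2204 and genes lower 777. Median-ratio scaling gave 1242 higher and 1754 lower, so the share of higher calls depends on the scaling, and quantile normalization gave 1073 and 1188. Leaving out single libraries gave between 1213 and 3163 higher and between 404 and 1321 lower. Of the other retinoid genes 2 were higher, 1 at a minimum mean of 5 TPM, which removes ALDH1A3, 1 after either scaling, and 1 to 6 without single libraries. Of the retinoic acid targets 0 to 2 were higher without single libraries, and 1, ZNF423, was lower after quantile normalization. With no filter on low values, 3 other retinoid genes were higher. The cause of these changes was not tested.

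Changes of sign were found in genes that did not pass. After median-ratio scaling the log2 fold changes were -0.10 for SCARB1, -0.0311 for RDH11, -0.0003 for HDAC3, -0.14 for MYCN, -0.10 for HAND2 and -0.052 for VIM, and TWIST1 was at 0.0008 after quantile normalization. Without single libraries LIPE lay between -0.15 and 0.0558, RDH14 between -0.11 and 0.0238, MYCN between -0.0099 and 0.0708, HAND2 between -0.0675 and 0.18 and VIM between -0.30 and 0.38. VIM was lower without replicate 3 of sAKZ692 (limma adjusted p = 0.00142).

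No pairing by replicate number was seen: deviations from the group means of same-numbered libraries correlated at 0.061, -0.025 and 0.042. Libraries of different number correlated at -0.065 to 0.041. With 3 libraries per group, deviations from the mean are not independent, so this cannot exclude pairing. With the replicate block 1863 genes were higher and 636 lower, 2 other retinoid genes were higher, RXRG reached an adjusted p of 0.0361, and DGAT1 and THY1 missed the threshold (0.0520 and 0.0514).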

Other observations

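The level of CRABP2 relative to STRA6 differed little between the groups although both were several times higher in 2 treated libraries. The ratio of their TPM was 13.3, 7.60 and 5.01 in replicates 1, 2 and 3 of sAKZ692, against 13.0, 8.57 and 5.96 in replicates 1, 2 and 3 of DMSO, so the ranges nearly coincided. CRABP2 relative to RARG was instead 10.4, 9.34 and 1.35 in the sAKZ692 libraries, against 1.84, 2.17 and 1.84 in the DMSO libraries. The ratio of RXRB to RXRG was 1.73, 1.86 and 5.72 in the sAKZ692 libraries, against 4.22, 3.54 and 6.02 in the DMSO libraries. These ratios were computed after the values had been seen and were not tested.

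Chromogranin A, a granule protein gene on the noradrenergic marker list, was, like CRABP2, above all controls in replicates 1 and 2 of sAKZ692. In replicate 3, the library that stood apart, it was below all controls, where CRABP2 lay within their range. CHGA was at 485, 511 and 183 TPM in replicates 1, 2 and 3 of sAKZ692, against 291, 323 and 271 TPM in replicates 1, 2 and 3 of DMSO. TH, tyrosine hydroxylase, was instead highest in that library, with 0.971, 1.00 and 5.24 TPM in the sAKZ692 libraries, against 0.231, 0.186 and 0.682 TPM in the DMSO libraries. Both were named after their values were seen.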
